A study of Mus musculus with 18 samples.

Results

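The contacts described here join the sequence on one side of the mouse HoxD cluster with the sequence on the other side and so skip the Hoxd genes. Chromosome conformation capture carbon copy (5C) was used, an assay in which crosslinked chromatin is cut with EcoRI, ligated, and read with forward and reverse primers at chosen restriction fragments, so that only forward–reverse pairs are measured. A pair was taken as a contact between the flanks when the midpoint of one fragment lay in chr2:74241352-74482147, the 5′ flank up to Evx2, and the midpoint of the other lay in chr2:74604633-74907778, the 3′ flank beyond Hoxd1 (mm9). This gave 1365 of the 4422 pairs (30.9%) in the embryonic stem cell (ESC) primer design and 1380 of the 10300 pairs (13.4%) in the limb design, over distances of 128 to 662 kb. They joined 39 fragments of the 5′ flank with 70 of the 3′ flank in the ESC design, and 40 with 69 in the limb design, since 50% of the possible combinations had a forward and a reverse primer. The designs shared 1346 of these pairs, and each design was analysed apart.

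The 14 ESC libraries fell into 7 groups. OS25_D3 (n = 2) held OS25 ESCs differentiated for 3 days without LIF, the last 2 of them with retinoic acid. OS25_UD (n = 2) was the same line undifferentiated. Eed-/- (n = 2) held knockout ESCs lacking a core subunit of PRC2. Ring1BGWT (n = 2) and Ring1BG53 (n = 1) were Ring1B knockout ESCs to which wild-type Ring1B or the I53A mutant had been returned. Ring1B-/- (n = 3) held ESCs lacking Ring1B, a PRC1 subunit with ubiquitin ligase activity. WT (n = 2) was the wild-type WTF18 line. The labels give the re-expression lines only as Ring1B knockouts, and their state is taken from the names and the study's methods. The methods give growth on mitomycin C-treated embryonic fibroblasts for the WT, Ring1B-/- and Eed-/- ESCs. The fibroblasts were removed by reattachment before 5C. For OS25 the methods cite an earlier protocol without naming fibroblasts. The labels of the OS25_UD libraries carry the same differentiation text as those of OS25_D3. The methods name 2 Eed-/- clones without saying which library came from which. They cite different sources for the Eed-/- and the Ring1B-/- ESCs, and the WT libraries are titled Ring1B_WT. Whether Eed-/- and WT share a parental line is not stated. In the comparisons of Eed-/- with WT, loss of Eed therefore cannot be told apart from a difference between lines. The 4 limb libraries came from P2 (n = 2) and A2 (n = 2), immortalised mesenchymal lines from the posterior and the anterior distal forelimb bud of Immortomouse embryos of stage E10.5, each a single line grown at the permissive temperature with interferon. 5C carries no expression readout, so cell identity could not be checked against marker genes, and the labels do not say that libraries of a group came from separate cultures.

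The Hoxd genes encode transcription factors acting in patterning of the trunk and limbs, and enhancers lie on both sides of the cluster, digit enhancers such as the global control region (GCR) and Prox in the 5′ gene desert and further elements in the 3′ desert beyond Mtx2. In Hi-C maps the cluster sits between a pair of topologically associating domains, stretches within which sequences are captured together more often than with their neighbours, and contacts across the border between them are depleted. Polycomb complexes hold the cluster silent in ESCs, where PRC2 methylates histone H3 lysine 27 and PRC1 ubiquitinates histone H2A.

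The flanks were divided at fragment borders into windows named after the gene or element drawn there in the study. The 5′ flank held the GCR window (chr2:74241352-74331951), the Lnp window (chr2:74331952-74415002), with exons of Lnp, the gene for lunapark, a protein of endoplasmic reticulum junctions, and the Prox window (chr2:74427780-74482147), with the pseudogenes Mrpl23-ps1 and Gm13672 and a U6 RNA gene. The 3′ flank held the Hoxd1–Mtx2 window (chr2:74604633-74658390), in which no gene is annotated, the Mtx2 window (chr2:74659682-74717578), with the gene for metaxin 2, part of a mitochondrial outer membrane import complex, and the near and far desert windows (chr2:74717579-74809245 and chr2:74809246-74907778). A fragment was placed in a window by its midpoint. The limb design also covered 482 kb further 5′ (chr2:73751054-74232805).

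Some fragments carried a large part of the contacts between the flanks, and their ligation ends are shown because the strongest pairs and several group differences below turn on them. All 133 fragments of the ESC design ended at an EcoRI site of the mm9 sequence. Each line gives the last bases of a fragment on the plus strand and runs on to the end of the EcoRI site, shown in capitals. The last bases of the site therefore lie past the fragment end given here. Which end of a fragment its primer reads was not used here. The fragments mHoxD_26 (chr2:74330936-74331951, no annotated gene) and mHoxD_131 (chr2:74706277-74710568, holding an exon of Mtx2) made the strongest ESC pair. The fragment mHoxD_125 (chr2:74697829-74698921, in an intron of Mtx2) took part in the next 4 ESC pairs, with mHoxD_65 (chr2:74472944-74482147, Prox window) and mHoxD_1 (chr2:74241352-74246793, GCR window) among its partners. The fragments mHoxD_48 (chr2:74427780-74439611, holding the pseudogene Mrpl23-ps1) and mHoxD_180 (chr2:74894253-74895315, far desert window) had the largest shares in limb cells. The sequences below are from mm9.
mHoxD_26, chr2:74331895-74331954: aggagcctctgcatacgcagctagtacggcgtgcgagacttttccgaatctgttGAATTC
mHoxD_131, chr2:74710512-74710571: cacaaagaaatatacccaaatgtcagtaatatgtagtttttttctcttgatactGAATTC
mHoxD_125, chr2:74698865-74698924: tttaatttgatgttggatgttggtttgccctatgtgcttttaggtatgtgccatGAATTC
mHoxD_65, chr2:74482091-74482150: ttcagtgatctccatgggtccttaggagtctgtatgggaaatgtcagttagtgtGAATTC
mHoxD_1, chr2:74246737-74246796: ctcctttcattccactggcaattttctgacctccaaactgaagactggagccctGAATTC
mHoxD_48, chr2:74439555-74439614: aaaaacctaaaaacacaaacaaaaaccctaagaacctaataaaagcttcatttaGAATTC
mHoxD_180, chr2:74895259-74895318: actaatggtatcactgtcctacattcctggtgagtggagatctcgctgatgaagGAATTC

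Interaction frequency is given as reads of a pair per 1000 reads of its library. Library totals recovered from the step between values were 216419 to 1708047 reads for ESCs and 478818 to 2096681 for limb cells, so that 3 reads, the limit that an empty pair allows, corresponded to 0.00176 to 0.0139 and to 0.00143 to 0.00627 per 1000. Of the signal of all pairs at least 10 kb apart, between-flank pairs held 7.68% to 11.97% in an ESC library. In a limb library they held 6.12% to 7.86%. Most were empty in ESCs, where 40.8% to 82.3% of them had no read in a given library, against 3.62% to 34.6% in limb cells. Of the 1365 ESC pairs, 63 had no read in any library and 2 were read in all 14, whereas 717 of the 1380 limb pairs (52.0%) were read in all 4. PCR copies cannot be told from separate ligation molecules, so limits set by read counts cover counting error only.

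Single between-flank pairs were poorly shared by libraries. Over the 1365 ESC pairs, Pearson's r of log2(frequency + 0.02) was 0.09 to 0.22 between libraries of one group, while in limb cells it was 0.44 between the P2 libraries and 0.35 between the A2 libraries, within the range of 0.32 to 0.55 between libraries of different lines. The highest limb value, 0.55, was that of P2 replicate 1 with A2 replicate 1. These correlations describe pairs that share fragments and libraries, so no p is attached to them. Ring1BGWT replicate 1 and Ring1BG53 stood apart, with r = 0.57 against 0.08 to 0.30 for the other 90 combinations of ESC libraries, and 166 pairs were read in both, 68.6% of the 242 read in Ring1BGWT replicate 1 and 48.7% of the 341 read in Ring1BG53. Over all pairs under 120 kb their r was 0.71, against at most 0.57 for the other combinations. Their counts differed by more than counting error (chi-square per degree of freedom 24.7, against 65.3 to 163 for ESC replicates). PCR copies enter that value, so it does not tell whether the libraries share a source. Both were kept, and the separation of Ring1BGWT is also given without its replicate 1. Why these libraries are alike was not tested, and Ring1BG53, the only library of its group, may not be a sample independent of Ring1BGWT replicate 1. Because of this spread the frequencies are read below as means over many pairs.

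**Figure D1:**
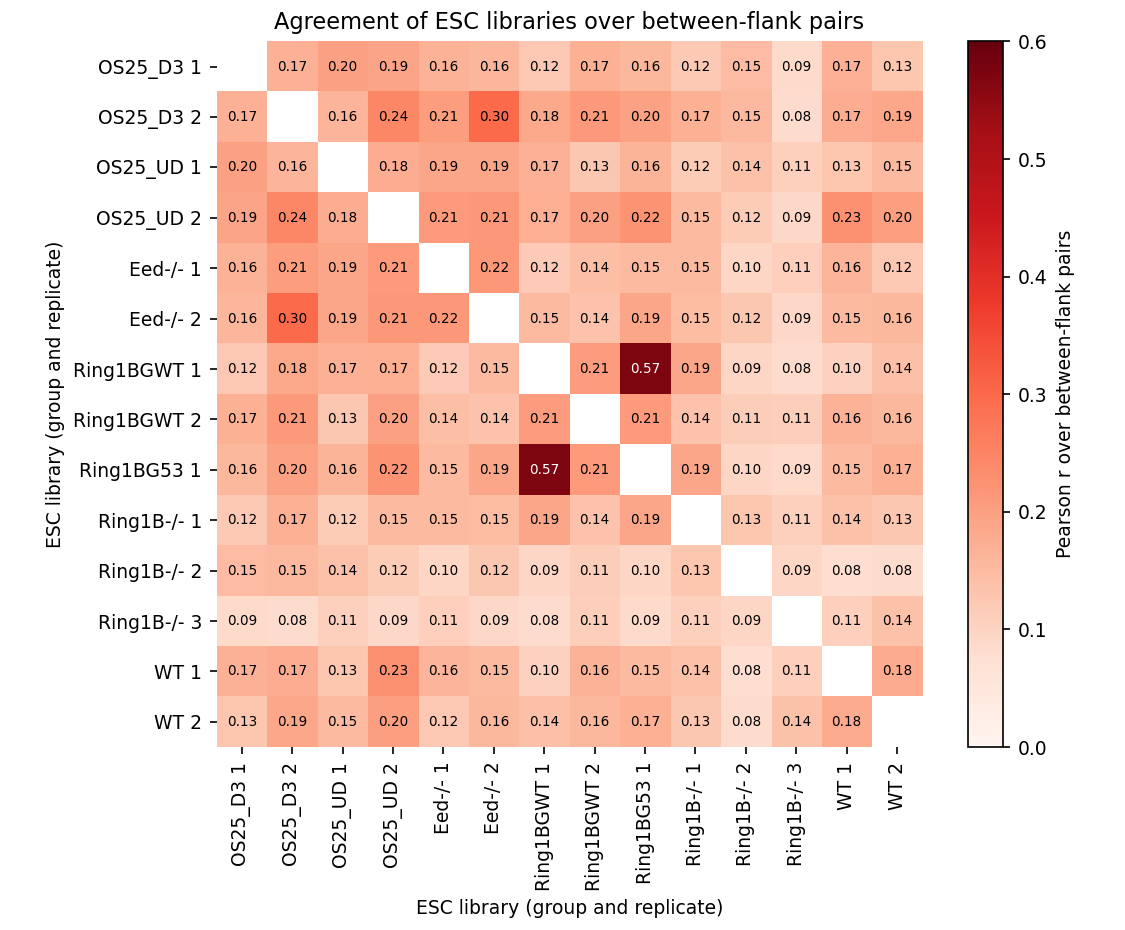
Pearson's r between ESC libraries over the 1365 between-flank pairs, on log2(frequency + 0.02). Ring1BGWT replicate 1 and Ring1BG53 reached 0.57, and the other combinations lay between 0.08 and 0.30.

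The frequency of contacts between the flanks was low and nearly level over 5 broad distance classes. In ESCs the mean over libraries was 0.0403 per 1000 at 120-200 kb (64 pairs), 0.0393 at 200-300 kb (201 pairs), 0.0441 at 300-400 kb (375 pairs), 0.0411 at 400-500 kb (392 pairs) and 0.0390 at 500-670 kb (333 pairs). In limb cells it was 0.0306, 0.0380, 0.0377, 0.0408 and 0.0398 over the same classes. Contacts across the cluster therefore did not decline with distance in these means. Pairs lying inside a flank declined over shorter distances. Their ESC means were 0.310 per 1000 at 10-30 kb, 0.174 at 30-60 kb, 0.1201 at 60-120 kb and 0.0966 at 120-150 kb, and their limb means 0.243, 0.165, 0.121 and 0.115. At 150-180, 180-210 and 210-240 kb they had 0.0847, 0.0856 and 0.0943 in ESCs and 0.0969, 0.0933 and 0.101 in limb cells. Over the distances that both kinds of pairs hold, pairs inside a flank thus showed no steady decline either. Distances under 120 kb held no between-flank pair. The log2 ratio of 10-30 kb over 120-240 kb inside a flank was 1.41 to 2.22 in the ESC libraries and 1.04 to 1.41 in the limb libraries.

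The slope between the flanks varied among libraries. The log2 ratio of the nearest class (120-200 kb) over the farthest (500-670 kb) was -0.44 and -0.31 in OS25_D3, and -0.00342 and 0.53 in OS25_UD. It was -0.22 and -1.07 in Eed-/-, 0.51 and 0.14 in Ring1BGWT, 0.24 in Ring1BG53, 0.07, 0.05 and 0.31 in Ring1B-/-, and -0.10 and 0.53 in WT. Of the 14 ESC libraries 6 were below 0, that is, had higher frequencies at the farther distance, and both OS25_D3 and both Eed-/- libraries were among them. All 4 limb libraries were below 0 (-0.53 to -0.23), but 1 of 4 remained so when each fragment was divided by its own efficiency, estimated from its contacts at 120 kb or more (-0.06 to 0.41). With the same correction the ESC range was -0.65 to 1.21, with 5 of 14 libraries below 0.

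**Figure D2:**
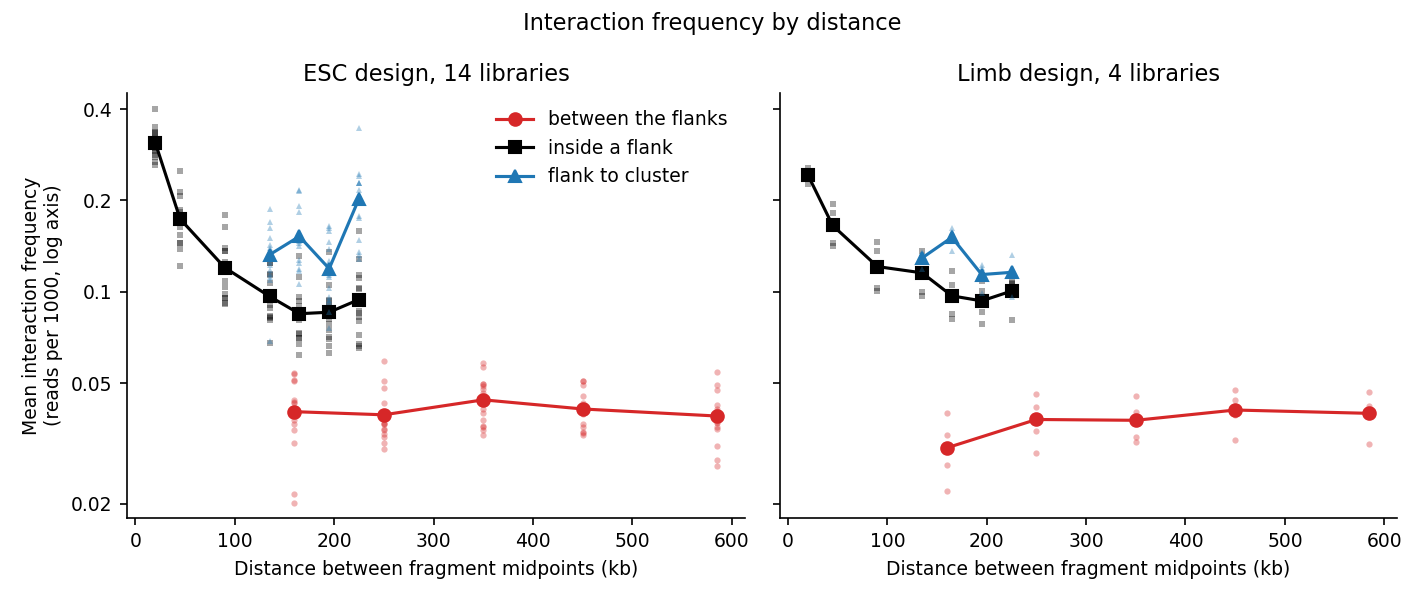
Mean interaction frequency (reads per 1000, log axis) against distance between fragment midpoints in 14 ESC libraries (left) and 4 limb libraries (right). Small symbols are libraries and large symbols their means; over the 5 broad classes the means of between-flank pairs were 0.0390 to 0.0441 per 1000 in ESCs and 0.0306 to 0.0408 in limb cells, with single ESC libraries from 0.0202 to 0.0593.

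Averaged over matched distances of 120-240 kb, contacts inside a flank were more frequent than contacts between the flanks in every library. Flank separation was taken as the log2 ratio of the mean over pairs inside either flank to the mean over pairs between the flanks. The ratio was computed at 120-150, 150-180, 180-210 and 210-240 kb and averaged over the 4 classes. In ESCs these classes held only 19, 30, 23 and 37 pairs between the flanks. They held 159, 138, 113 and 67 pairs inside a flank, most of them in the 3′ flank. In limb cells they held 17, 27, 24 and 40 pairs between the flanks and 158, 137, 108 and 65 inside a flank. Flank separation was 1.55 and 2.10 in the OS25_D3 libraries and 0.77 and 0.80 in the OS25_UD libraries. It was 0.96 and 1.44 in Eed-/-, 0.95 and 0.95 in Ring1BGWT, 1.01 in Ring1BG53, 1.21, 1.20 and 0.88 in Ring1B-/-, and 1.17 and 0.85 in WT. All 14 values lay above 0, the lowest in OS25_UD and the highest in OS25_D3.

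As group means the separation was 1.83 in OS25_D3 (95% interval 1.44 to 2.22), a 3.55-fold difference between pairs inside and between the flanks, and 0.79 in OS25_UD (0.40 to 1.18, 1.73-fold). It was 1.20 in Eed-/- (0.81 to 1.59, 2.29-fold), 0.95 in Ring1BGWT (0.56 to 1.34, 1.93-fold), 1.01 in Ring1BG53 (0.46 to 1.56, 2.01-fold), 1.10 in Ring1B-/- (0.78 to 1.42, 2.14-fold) and 1.01 in WT (0.62 to 1.40, 2.01-fold). Each of the 7 groups differed from 0 in limma, with adjusted p between 1.11e-11 in OS25_D3 and 0.000609 in Ring1BG53. The fit pooled the spread of readouts that overlap in their pairs, with 49 degrees of freedom against 7 for a readout alone. These p therefore overstate the replication. Ring1BG53, a single library whose spread was taken to be that of the other groups, lost this call with the 5′ flank alone as the comparison (0.28, limma adjusted p = 0.360) and after correction for fragment efficiency (0.31, adjusted p = 0.313).

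The separation rose in OS25_D3 relative to OS25_UD. The log2 difference was 1.04 (SE 0.28, 95% interval 0.49 to 1.59), or 2.05-fold, with a limma adjusted p of 0.0152, the only call among 35 contrasts of ESC region readouts. The ratio has 2 parts. Between the flanks at 120-240 kb the mean was 0.0491 and 0.0247 per 1000 in OS25_D3 against 0.0541 and 0.0434 in OS25_UD, and inside the flanks it was 0.126 and 0.0963 in OS25_D3 against 0.0899 and 0.0769 in OS25_UD. Values between the flanks overlapped between the groups, and those inside the flanks did not.

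By distance class, OS25_D3 had 2.42, 1.93, 2.26 and 0.70 from the nearest to the farthest class, against 0.72, 1.27, 0.75 and 0.41 in OS25_UD. At 180-210 kb the OS25_D3 libraries had 1.43 and 3.08, on 23 pairs between the flanks. Of these pairs 56.5% to 87.0% were empty in an OS25_D3 library. The OS25_D3 libraries lay above the OS25_UD libraries in each of the 4 classes, but at 210-240 kb this turned on mHoxD_125. Without this fragment, an alternative chosen after seeing the data, that class had 0.54 and 1.78 in OS25_D3 and 1.27 and 1.52 in OS25_UD, which overlap, and the lower mean was that of OS25_D3 (1.16 against 1.39). The call depended on single choices. It was lost when the 5′ flank alone (0.67, limma adjusted p = 0.300) stood for pairs inside a flank, when fragments were corrected for efficiency (0.94, adjusted p = 0.109) and without OS25_D3 replicate 2 (0.76, adjusted p = 0.355). The readouts overlap in their pairs and share 1 spread estimate in the fit; with the spread of each readout taken alone, the adjusted p was 0.110.

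The other contrasts of separation were not called. Eed-/- differed from WT by 0.19 (95% interval -0.37 to 0.74, limma adjusted p = 0.924), and by 0.86 (adjusted p = 0.0714) when the distances were limited to 120-200 kb. Ring1B-/- differed from WT by 0.09 (-0.42 to 0.59, adjusted p = 0.924). Ring1BGWT differed from Ring1B-/- by -0.15 (-0.65 to 0.36) and Ring1BG53 from Ring1B-/- by -0.09 (-0.73 to 0.55), both with a limma adjusted p of 0.924. Without its replicate 1, Ring1BGWT had a separation of 0.95. Differences of up to about the sizes of these bounds in either direction could not be told from 0.

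At 210-240 kb the Eed-/- libraries had low values. Their separation was 0.11 and -0.54, against 1.21 and 1.61 in WT, and the negative value was the only one among the 14 ESC libraries in that class. This class holds the pair of mHoxD_65, the fragment next to the cluster in the Prox window, with mHoxD_125 in Mtx2, which had 0.833 and 2.00 per 1000 in Eed-/- against 0.0413 and 0 in WT. With mHoxD_125 left out, the values were 1.23 and 0.89 in Eed-/- and 1.79 and 1.73 in WT. The removal was not particular to Eed-/-, since the mean over all 14 ESC libraries in this class was 1.39 without the fragment and 0.82 with it.

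**Figure D3:**
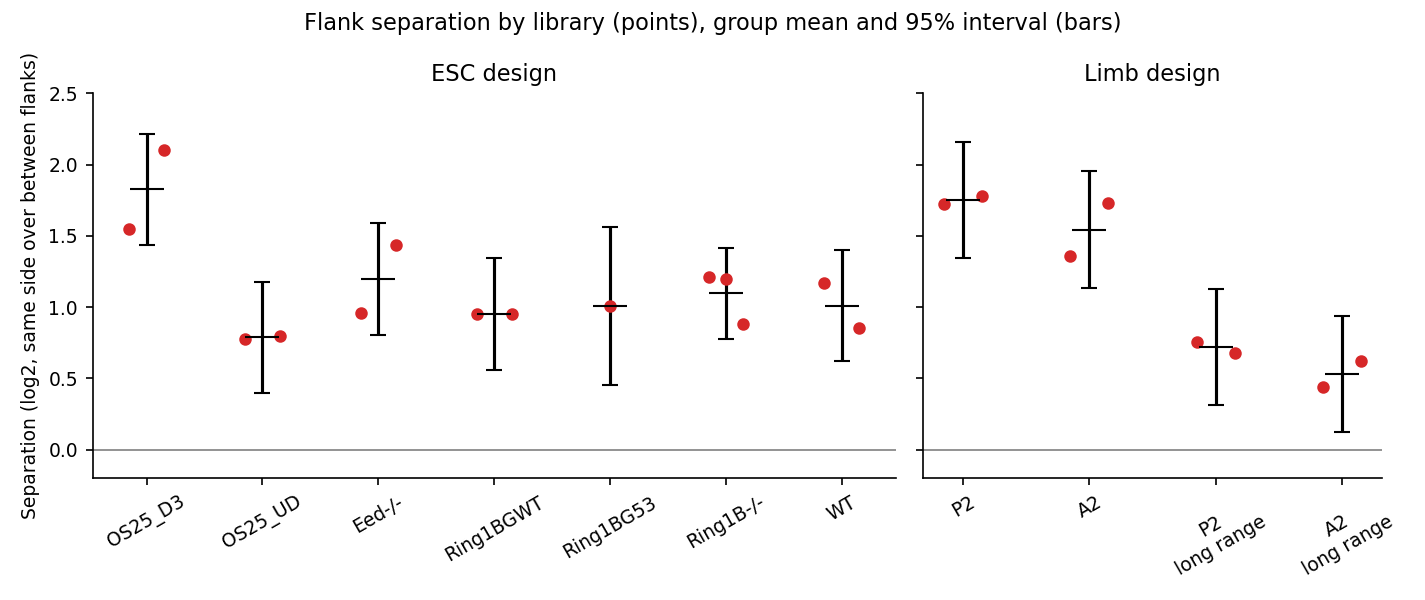
Separation (log2, same side over between flanks) in each library (points), with the group estimate and 95% interval from limma (bars), for the ESC design (left) and the limb design (right). All 14 ESC libraries lie above 0, between 0.77 and 2.10, and the 4 limb libraries between 1.36 and 1.78 at 120-240 kb and between 0.44 and 0.76 at 240-640 kb (long range).

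With either flank alone as the comparison, the separation stayed above 0 in all 14 ESC libraries. From the nearest to the farthest class the 5′ flank gave only 32, 28, 22 and 8 ESC pairs. The 3′ flank gave 127, 110, 91 and 59, and the classes were weighted equally. With only the 5′ flank the separation was 0.98 and 1.63 in OS25_D3, against 0.19 and 1.09 in OS25_UD, and over all ESC libraries it ranged from 0.19 to 1.63. With only the 3′ flank it was 1.65 and 2.19 in OS25_D3, against 0.88 and 0.73 in OS25_UD, and ranged from 0.73 to 2.19. The OS25 groups overlapped with the 5′ flank and did not overlap with the 3′ flank. Pairs between a flank and the cluster were likewise more frequent than pairs between the flanks at the same distance, by 1.30 to 3.08 on the log2 scale in ESCs and 1.61 to 2.37 in limb cells.

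By subregion, 3 windows had pairs inside their own flank and across the cluster at the same distances. These ratios were defined after values had been seen and are given without a test. The Prox window (120-240 kb, 91 pairs across and 78 inside) had a mean log2 ratio of 0.70 over the 14 ESC libraries, from 0.04 to 1.27. The Hoxd1–Mtx2 window (120-300 kb, 168 and 277 pairs) had 1.00, from 0.49 to 1.79. The Mtx2 window (180-240 kb, 28 and 49 pairs) had 1.39, from 0.32 to 3.15. All 3 windows were above 0 in all 14 libraries. In the Hoxd1–Mtx2 window the OS25_D3 libraries had 1.60 and 1.79 and the OS25_UD libraries 1.01 and 0.49, without overlap, whereas in the Prox window they had 0.81 and 1.11 in OS25_D3 against 0.04 and 1.01 in OS25_UD, with overlap. In the Mtx2 window the Eed-/- libraries had 0.42 and 0.46, against 2.24 and 1.27 in WT, and this window holds mHoxD_125. The Prox ratio also takes in the pair of mHoxD_65 with mHoxD_125, and the window ratios were not computed without that fragment.

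The frequency between the flanks itself was not called different in any comparison. The mean over all between-flank pairs was 0.0409 and 0.0351 per 1000 in OS25_D3, against 0.0488 and 0.0338 in OS25_UD. It was 0.0412 and 0.0477 in Eed-/-, 0.0411 and 0.0435 in Ring1BGWT, 0.0355 in Ring1BG53, 0.0465, 0.0510 and 0.0368 in Ring1B-/-, and 0.0379 and 0.0354 in WT. Group means ranged from 0.0355 in Ring1BG53 to 0.0448 in Ring1B-/-; both Eed-/- libraries lay above both WT libraries, and Ring1B-/- overlapped WT. The log2 difference was -0.10 in OS25_D3 against OS25_UD (95% interval -0.65 to 0.45), 0.27 in Eed-/- against WT (-0.28 to 0.83), 0.27 in Ring1B-/- against WT (-0.23 to 0.78), -0.07 in Ring1BGWT against Ring1B-/- (-0.57 to 0.44) and -0.32 in Ring1BG53 against Ring1B-/- (-0.96 to 0.32). Of 30 tests over the mean and 5 distance classes, limma called 0, 4 had an unadjusted p under 0.05, and the lowest adjusted p was 0.0709.

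That lowest value belonged to the nearest class. At 120-200 kb the Eed-/- libraries had 0.0318 and 0.0202 per 1000, against 0.0377 and 0.0536 in WT, and the groups did not overlap (log2 difference -0.83, limma adjusted p = 0.0709). The OS25_D3 libraries had 0.0350 and 0.0215 against 0.0542 and 0.0404 in OS25_UD, also without overlap (-0.77, adjusted p = 0.0859). Neither passed the threshold. In the next class, 200-300 kb, Eed-/- was 0.59 above WT (limma adjusted p = 0.330), and this class includes the pair of mHoxD_65 with mHoxD_125.

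Contacts between the flanks differed by subregion, though not in the order of distance. The window means were not corrected for fragment length or efficiency, so their ranks also carry these. In ESCs the Lnp–Mtx2 pair of windows had the highest mean over groups, 0.0569 per 1000, with 0.0812 in Eed-/- and 0.0401 in WT at its extremes, followed by GCR–Mtx2 at 0.05001 and Prox–Mtx2 at 0.0490. The lowest was GCR–Hoxd1–Mtx2 at 0.0249 (0.01804 to 0.0338), which ranked 11th or 12th of the 12 window pairs in each of the 7 ESC groups. It spans 335 kb on average, whereas GCR–Mtx2, with the higher mean, spans 411 kb. Prox–Hoxd1–Mtx2, the shortest at 164 kb, had 0.0411. The remaining 7 lay between 0.0309 and 0.0455. The high places of the Mtx2 window rested on mHoxD_125: without it Lnp–Mtx2 had 0.0406 and ranked 5th, GCR–Mtx2 0.0364 and 8th, and Prox–Mtx2 0.0320 and 10th, while Lnp with the far desert (0.0455) came first and GCR–Hoxd1–Mtx2 stayed 12th.

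In limb cells the 12 window pairs spanned 1.88-fold in P2 and 1.95-fold in A2, within the 1.76-fold (Ring1B-/-) to 3.44-fold (Eed-/-) of the ESC groups. The highest were Lnp with the far desert (0.0475 per 1000) and with the near desert (0.0473), followed by Prox with the near desert (0.0465) and with the far desert (0.0462). GCR–Hoxd1–Mtx2 was again lowest at 0.0254 and ranked 12th in both lines. The shortest pair, Prox–Hoxd1–Mtx2, had 0.0314 and ranked 10th in both. Over the 1346 shared fragment pairs the group means of the designs correlated with a Spearman rho of 0.46, a value that also carries fragment length and efficiency common to both.

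**Figure D4:**
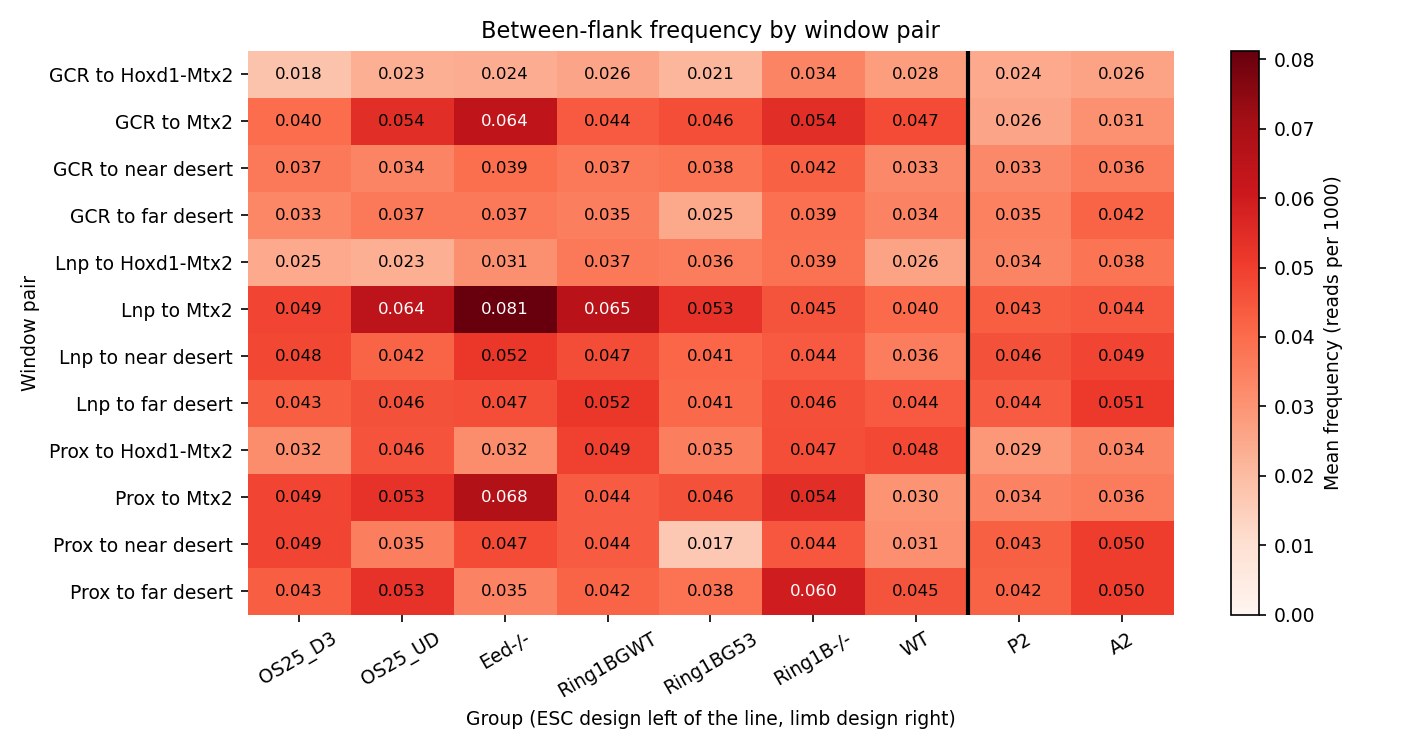
Mean frequency (reads per 1000, colour scale from 0) of the 12 pairs of windows between the flanks in each ESC group and limb line. GCR to Hoxd1-Mtx2 is the lowest or next to lowest in every column, and Lnp to Mtx2 in Eed-/- is the highest at 0.0812.

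Few window pairs passed the test between groups. In Eed-/- against WT, limma called 1 of the 12 between-flank pairs, beside a background of 5.56% of all 36 window pairs, which is 2 calls; with libraries scaled to equal sums it called 4 of the 12. This was Prox–Mtx2, at 0.0564 and 0.0787 per 1000 in Eed-/- against 0.0294 and 0.0305 in WT. Both Eed-/- libraries lay above both WT libraries, and the log2 difference was 0.80 (SE 0.24, 95% interval 0.31 to 1.28, adjusted p = 0.0401). Much of the difference lay in pairs of mHoxD_125: without this fragment the remaining 54 of 59 pairs had 0.0318 and 0.0294 in Eed-/- against 0.0230 and 0.0251 in WT, and the log2 ratio of group means, with 0.02 added to each, was 0.20 in place of 0.81. The call was lost without Eed-/- replicate 2 and without WT replicate 2. Lnp–Mtx2 differed by 0.78 with a limma adjusted p of 0.0994.

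In the other contrasts no between-flank window pair was called. OS25_D3 against OS25_UD had 0 of 12 called by limma (background 0%; 0 at an unadjusted p under 0.05, against 6 of all 36), with a median log2 difference of -0.09 against 0.06 over all window pairs. Ring1B-/- against WT had 0 (background 0%; 1 unadjusted, against 4 of all 36), with medians of 0.19 and 0.14. Ring1BGWT against Ring1B-/- had 0 (background 2.78%; 0 unadjusted, against 1 of all 36) and Ring1BG53 against Ring1B-/- had 0 (background 0%; 1 unadjusted, against 4 of all 36). The medians of the between-flank pairs thus lay near those of all window pairs, the widest gap being that of OS25_D3 against OS25_UD.

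At finer scale, 20-kb bins gave 180 bin pairs lying wholly between the flanks, of which 160 had a mean above 0.02 per 1000 and were tested among 557 in all. None of the 160 was called by limma in any ESC contrast. Of all 557 bin pairs limma called 0.18% in OS25_D3 against OS25_UD, 1.26% in Eed-/- against WT, 0.359% in Ring1B-/- against WT, 0.18% in Ring1BGWT against Ring1B-/- and 0% in Ring1BG53 against Ring1B-/-. At an unadjusted p under 0.05 the between-flank count was 2 in OS25_D3 against OS25_UD (1.25%, against 5.03% of all bin pairs). It was 12 in Eed-/- against WT (7.5%, against 12.03%), 12 in Ring1B-/- against WT (7.5%, against 9.52%), 16 in Ring1BGWT against Ring1B-/- (10%, against 9.87%) and 9 in Ring1BG53 against Ring1B-/- (5.63%, against 6.64%). The between-flank share was the lower apart from Ring1BGWT against Ring1B-/-, where the shares were nearly equal. These gaps rest on few bin pairs and were not tested, and the 557 bin pairs include the 160. At this depth and number of libraries no 20-kb bin pair between the flanks could be told apart between groups after adjustment.

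The strongest single contact across the cluster in ESCs joined mHoxD_26 at the border of the GCR and Lnp windows with mHoxD_131 in Mtx2, 377 kb apart. It was read in all 14 libraries, at 0.251 in the lowest, 0.562 in the median and 1.88 per 1000 in the highest. In OS25_D3 it had 0.798 and 0.307, against 1.88 and 0.251 in OS25_UD, and in Eed-/- 0.794 and 1.63, against 1.105 and 0.722 in WT, so that the groups overlapped. Its mean over groups, 0.699, was 17.3 times that of all between-flank pairs (0.0404), and 28.7 and 20.8 times the mean of the other between-flank pairs of mHoxD_26 and of mHoxD_131. Neither fragment was high with its other partners, whose means were 0.0244 and 0.0336. In limb cells the pair had 0.0148 to 0.128 per 1000 and ranked 162nd of 1380.

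The next 4 pairs in ESCs all had mHoxD_125 as their 3′ fragment. Its partners were mHoxD_65 at 221 kb (mean over groups 0.436 per 1000, read in 11 of 14 libraries), mHoxD_1 at 454 kb (0.431, 13 of 14), mHoxD_27 in the Lnp window at 356 kb (0.396, 12 of 14) and mHoxD_40, holding an exon of Lnp, at 320 kb (0.347, 10 of 14). These pairs exceeded the mean of the other between-flank pairs of mHoxD_125 by 1.48 to 1.90 times only, so the fragment was high throughout. mHoxD_125, of 1093 bp, took part in 1.39% of the between-flank pairs and held 8.40% of their signal (2.85% to 12.2% by library), whereas at 120 kb or more it held 2.02% of the other signal on 1.31% of the other pairs. The values of its 4 strong pairs in limb cells were at most 0.0934 per 1000.

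In limb cells no pair stood out in this way. The 5 highest were mHoxD_65 with mHoxD_180 (417 kb, mean of P2 and A2 0.185 per 1000), mHoxD_48 with mHoxD_166 (424 kb, 0.176), mHoxD_27 with mHoxD_143 (422 kb, 0.173), mHoxD_43 with mHoxD_177 (485 kb, 0.163) and mHoxD_48 with mHoxD_147 (351 kb, 0.162). All 5 were read in all 4 libraries and lay 4.18 to 4.78 times above the mean of 0.0388. The highest had 0.1002 and 0.184 in P2 and 0.154 and 0.305 in A2, with overlap. In the ESC design 4 of the 5 were measured and ranked between 58th and 347th of 1365.

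The share of between-flank signal was uneven over fragments. In the 5′ flank the largest ESC shares were those of mHoxD_1 (6.66%), mHoxD_27 (6.203%, a fragment of 20865 bp) and mHoxD_65 (4.93%), each in 2.56% of the pairs, and the largest limb shares were those of mHoxD_48 (5.89%), mHoxD_27 (5.57%) and mHoxD_43 (5.48%). In the 3′ flank mHoxD_125 was followed in ESCs by mHoxD_96 (2.70%), the first fragment 3′ of Hoxd1, and mHoxD_135 (2.47%), and in limb cells mHoxD_180 (3.04%), mHoxD_143 (2.70%) and mHoxD_175 (2.60%) came first. Across the fragments of a flank and design, the share correlated with fragment length (Spearman rho 0.53 to 0.76) and with the fragment's other contacts at 120 kb or more (0.76 to 0.94). These describe 39 to 70 fragments read in the same libraries and carry no p.

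Limb cells were also separated across the cluster. At 120-240 kb the flank separation was 1.72 and 1.78 in the P2 libraries and 1.36 and 1.73 in the A2 libraries, so that the lines overlapped in this average. The group estimates were 1.75 in P2 (95% interval 1.35 to 2.16, 3.37-fold, limma adjusted p = 3.98e-07) and 1.55 in A2 (1.14 to 1.95, 2.92-fold, adjusted p = 1.07e-06). These rest on 4 libraries. The fit pooled the spread of readouts that overlap in their pairs, with 16 degrees of freedom against 2 for a readout alone. Its p and intervals therefore overstate the replication, also for the long-range readout below. The difference of P2 from A2 was 0.21 (-0.37 to 0.79, adjusted p = 0.580). The separation was 2.26 in P2 and 2.26 in A2 at 120-150 kb, 2.12 and 1.66 at 150-180 kb, 1.44 and 0.93 at 180-210 kb, and 1.20 and 1.33 at 210-240 kb. In both lines the nearest class was thus the highest. The lines did not overlap at 150-180 kb (1.98 and 2.26 in P2 against 1.57 and 1.76 in A2) or at 180-210 kb (1.32 and 1.56 in P2 against 0.97 and 0.89 in A2), differences that were not tested by class, and they overlapped in the nearest and farthest classes.

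The limb design allowed the comparison at longer range, since its added sequence gave pairs lying wholly 5′ of the cluster at 240-640 kb. Pairs between the flanks averaged 0.0353 to 0.0434 per 1000 by class and line, and pairs on the same side 0.0542 to 0.0669. The log2 ratio averaged over 4 classes was 0.76 and 0.68 in P2 and 0.44 and 0.62 in A2, with no overlap between the lines. As estimates it was 0.72 in P2 (95% interval 0.31 to 1.13, 1.65-fold, limma adjusted p = 0.00238) and 0.53 in A2 (0.12 to 0.94, 1.45-fold, adjusted p = 0.0140), and the difference of 0.19 was not called (-0.39 to 0.77, adjusted p = 0.580). A2 alone lost its call without A2 replicate 1 (0.62, limma adjusted p = 0.0573) or A2 replicate 2 (0.44, adjusted p = 0.156). By class the ratio was 0.73, 0.56, 0.67 and 0.92 in P2 and 0.58, 0.42, 0.45 and 0.68 in A2 from the nearest to the farthest.

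Within the 5′ flank the long-range ratio differed by window; these values were also defined after seeing the data and not tested. For the GCR window at 240-340 kb it was 1.75 and 1.45 in P2 and 1.33 and 2.15 in A2, and at 340-440 kb 1.49 and 1.33 in P2 and 1.03 and 1.41 in A2. At 440-540 kb it was 0.78 and 0.75 in P2 and 0.42 and 0.91 in A2, so that the lines overlapped in all 3 classes of this window. For the Lnp window it was 0.81 and 0.68 in P2 and 0.77 and 0.80 in A2 at 240-340 kb, and 0.63 and 0.30 in P2 and 0.40 and 0.47 in A2 at 340-440 kb, with overlap. At 440-540 kb the Lnp values were 0.86 and 0.64 in P2 and 0.38 and 0.44 in A2, without overlap. For the Prox window, nearest to the cluster, it was 0.35 and 0.55 in P2 against 0.07 and -0.21 in A2 at 240-340 kb, and 0.80 and 0.82 in P2 against 0.37 and 0.40 in A2 at 340-440 kb. The lines did not overlap in these classes, and A2 replicate 2 had more contact across the cluster than along the 5′ side at 240-340 kb. At 440-540 kb, where only 13 Prox pairs crossed the cluster, it was 0.29 and 0.27 in P2 and 0.42 and 0.057 in A2, with overlap.

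**Figure D5:**
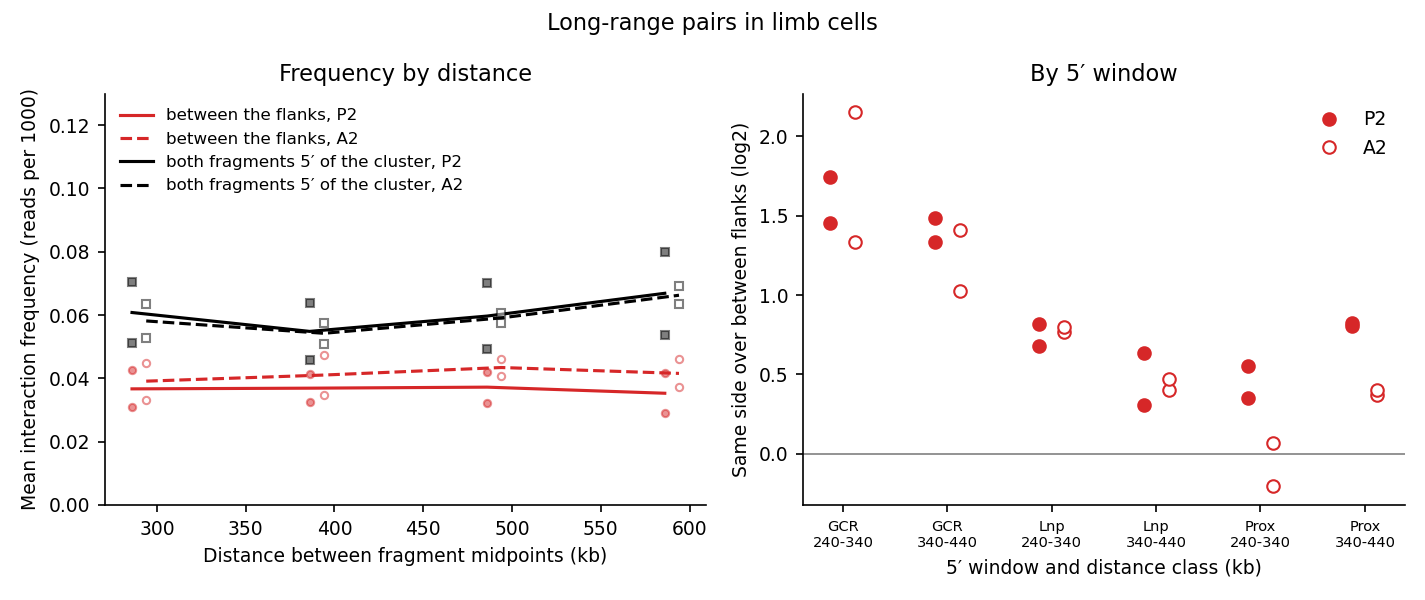
Left, mean frequency (reads per 1000) of between-flank pairs and of pairs lying wholly 5′ of the cluster against distance (kb) in P2 and A2, with libraries as small symbols and line means joined. Right, log2 of same-side over between-flank frequency by 5′ window and distance class in each library; the Prox window at 340-440 kb has 0.80 and 0.82 in P2 and 0.37 and 0.40 in A2.

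The level between the flanks was not called different in limb cells either. Its mean was 0.0416 and 0.0312 per 1000 in P2 and 0.0462 and 0.0363 in A2, with overlap (log2 difference -0.18, 95% interval -0.76 to 0.39, limma adjusted p = 0.580). In each line replicate 1 had the higher mean, and the labels do not tie replicates of the same number to each other. Of 6 tests over the mean and the distance classes, limma called 0, none had an unadjusted p under 0.05, and the estimates ranged from -0.26 to -0.12. All 12 between-flank window pairs had a lower fitted mean in P2, with a median log2 difference of -0.12 against -0.02 over all window pairs, but limma called 0 of 12 (0 unadjusted, background 0%). With 24-kb bins, 113 of 117 between-flank bin pairs were tested, and limma called 0 (background 0% of 1146; 0 unadjusted, against 22 of all), with a median of -0.13 against -0.02 over all bin pairs. In the window subregions compared with pairs inside their own flank, the limb values ran from 1.21 to 1.62 for Prox, 1.32 to 1.80 for Hoxd1–Mtx2 and 1.4996 to 1.97 for Mtx2, above 0 in all 4 libraries.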

How the data were processed

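The deposited files hold 1 matrix per library of 5C signal, in which the authors gave the reads of each forward–reverse pair per 1000 reads of its sequencing run (mm9); reads had passed through a Torrent 5C pipeline on Galaxy, and which aligner this used is not stated in the sources read. No correction for primer efficiency is described for the deposited values, so long or efficient fragments weigh more. Values were whole multiples of 1 read, from which library totals were recovered; total reads, not molecules, set that scale. Pairs under 10 kb were left out of bins and windows. Genes are from the annotation of mm9 supplied with the reference.

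Log2 means per region, and log2(mean + 0.02) per window or bin pair (bins with a mean over all libraries above 0.02), were fitted with limma 3.58.1 in R 4.3.3, in 1 fit per design with the groups sharing 1 spread (14 ESC libraries in 7 groups, 4 limb libraries), two-sided, with Benjamini-Hochberg adjustment over 35 ESC or 8 limb region contrasts, over the groups of a design for tests against 0, and within a contrast for windows and bins. The moderated fit had 49 and 16 degrees of freedom, against 7 and 2 of a readout alone. The study's methods name no test for 5C values. Scripts were tested on simulated data. Named were all 12 window pairs, called bin pairs, the 5 strongest fragment pairs per design and the 3 fragments of each flank with the largest share per design. The members, windows and lists were chosen with earlier results of these data known. Alternatives covered the pairs taken as inside a flank, distance classes, extreme values (99th percentile), fragment efficiency, scaling, empty pairs, pseudocounts of 0.005 and 0.1, 40-kb bins, no minimum, fewer groups in the fit and each library left out; the spread of each readout alone and mHoxD_125 left out were added after seeing the data. Python 3.11.15 with numpy 2.4.6, pandas 2.3.3, scipy 1.17.1 and matplotlib 3.10.9 made the tables and plots.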

Additional observations from a re-analysis of the deposited data

How the results depend on the processing

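The separation of OS25_D3 from OS25_UD kept its direction under all 12 alternatives (0.67 to 1.35) and lost its call under 6: the 5′ flank alone (0.67), fragment efficiency (0.94), mHoxD_125 left out (0.96, limma adjusted p = 0.0560), only these groups in the fit (1.04, adjusted p = 0.214), the spread of the readout alone (1.04, adjusted p = 0.110) and without OS25_D3 replicate 2 (0.76). With single libraries left out it ranged from 0.76 to 1.31. Separation against 0 stayed called in 78 of 80 alternatives, the exceptions being Ring1BG53 with the 5′ flank alone (0.28) and with fragment efficiency (0.31). Uncalled differences of separation turned sign in Eed-/- against WT without Eed-/- replicate 2 (-0.053; range over libraries left out -0.053 to 0.43), Ring1B-/- against WT without WT replicate 2 (-0.070; -0.070 to 0.25) and Ring1BGWT against Ring1B-/- with the 5′ flank alone (0.049). Over all alternatives these 3 differences ranged from -0.053 to 0.86, from -0.070 to 0.49 and from -0.37 to 0.049, that of Ring1BG53 against Ring1B-/- from -0.63 to -0.032 and that of P2 against A2 from 0.024 to 0.39, and none was called. The uncalled frequency differences turned sign in OS25_D3 against OS25_UD without OS25_D3 replicate 2 (0.0092) or OS25_UD replicate 1 (0.16; range -0.37 to 0.16), Ring1BGWT against Ring1B-/- without Ring1B-/- replicate 2 (0.031; -0.20 to 0.031) and P2 against A2 without P2 replicate 2 (0.022; -0.39 to 0.022). Long-range separation in A2 lost its call with either A2 library left out (0.44 to 0.62), and in P2 it held in all 6 alternatives (0.65 to 1.01). The number of between-flank window pairs called in Eed-/- against WT, 1 as reported, was 4 with libraries scaled to equal sums and 0 to 1 with a library left out; no bin pair between the flanks was called under any of 55 alternatives. The causes were not tested, beyond the smaller number of libraries in those that leave some out. No paired analysis was possible because the labels mark replicates without tying libraries of different groups to each other. In a single ESC library 40.8% to 82.3% of between-flank pairs were empty, which limits what single pairs can show. The ESC extremes went with total reads, 82.3% at 216419 reads in Ring1BGWT replicate 1 and 40.8% at 1708047 reads in Ring1B-/- replicate 2. Other ESC libraries did not, since Eed-/- replicate 1 with 1086406 reads had 80.6% empty and OS25_D3 replicate 1 with 608016 reads had 64.0%. In the limb design P2 replicate 1 with 478818 reads had 3.62% empty and P2 replicate 2 with 2096681 reads had 21.3%.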
